A study of Mus musculus with 3 samples.

Results

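Sphingosine 1-phosphate receptors and the genes that hold lymphocytes in tissue or let them leave were followed in sorted mouse NK cells of lung and blood. The members are the 5 genes S1pr1, S1pr4, S1pr5, Klf2 and Cd69, chosen by symbol among the 25906 genes of the count files, and all 5 were present. Live NK1.1+NKp46+ cells came from lungs and blood of wild-type female mice aged 9 weeks, which were naive or had received PyMT tumor cells, a mouse mammary tumor line, intravenously 6 h or 14 days earlier. Lung and blood cells of each time were sequenced together in 1 droplet library with 3' counting and told apart by hashtag antibodies. B0304 was taken as the lung tag and B0306 as the blood tag, since the methods list the tissues and the tags in that order and nothing else in the labels pairs them. The sequencing was done once, with several mice per group by the study's own account, and since the cells of a tissue carry the same tag, the values here are sums that do not separate single mice.

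With the cells assigned by hashtag, lung gave 3676, 4680 and 3575 cells and blood 4367, 2746 and 2069 in the naive, 6 h and 14-day libraries. Summed counts per group lay between 16936897 and 35922737, and the median UMI count per cell between 5910 and 7524. All 8 NK markers, among them Ncr1 (NKp46) and Klrb1c (NK1.1), had a UMI in at least 50% of cells in each of the 6 groups. The 6 markers of type 1 innate lymphoid cells, which share the sorted antigens with NK cells, summed to 46.7 to 56.3 CPM (counts scaled to the total of a group) in the naive and 6 h groups, 169 in 14-day lung and 104 in 14-day blood. Itga1 alone gave 70.8 CPM of the 14-day lung sum, while Cxcr6 had 4.72 there and 15.3 in 14-day blood. With cells that had UMIs of both Tmem176b and Cxcr6 left out, 3546 of 3575 14-day lung cells and 2034 of 2069 14-day blood cells remained. Klf2 in 14-day lung was then 460 CPM in place of 455. The NK markers summed to 15534 CPM in 14-day lung and to 19001 to 22992 in the other groups. Most of these sums was Gzma, with 9435 CPM in 14-day lung and 10882 to 13978 in the other groups. Red cell markers summed to 68.2 CPM in 14-day lung and to 0.27 or less elsewhere. The red cell markers Hbb-bs and Hba-a1 each had a UMI in only 0.0559% of 14-day lung cells. Myeloid markers summed to 94.2 CPM in 14-day blood and to 4.70 in naive blood. Between 7 and 16 cell barcodes were shared by any pair of libraries. Free RNA could make up at most 1.62% to 7.18% of the counts of a group.

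Lymphocytes move along gradients of sphingosine 1-phosphate, a lipid that is high in blood and lymph and low inside tissues. S1pr1 and S1pr5 are the receptors through which lymphocytes follow this gradient out of tissues, and S1pr5 is the one best known for NK cells, where it appears with maturation. S1pr4 is a further receptor of the family that is largely restricted to blood cells. Klf2 is a zinc finger transcription factor that keeps S1pr1 and other genes of circulation switched on in lymphocytes. Cd69 is an early activation antigen whose protein binds S1pr1 and removes it from the cell surface, and it marks lymphocytes that stay in tissue. By antibody labelling, the study placed nearly all NK cells of naive lung inside blood vessels, also early after tumor cell injection. In whole metastatic lung it found few outside the vessels, with a larger share in separated nodules. The position of the sequenced lung cells was not measured, so lung against blood need not mean tissue against vessel.

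S1pr1 (ENSMUSG00000045092) lies on the minus strand of chromosome 3 from 115710433 to 115715072, and Cd69 (ENSMUSG00000030156) on the minus strand of chromosome 6 from 129267325 to 129275436, both on GRCm38. S1pr4 (ENSMUSG00000044199) occupies chromosome 10 from 81497747 to 81500132 on the minus strand. S1pr5 (ENSMUSG00000045087) occupies chromosome 9 from 21242912 to 21248443 on the minus strand, and Klf2 (ENSMUSG00000055148) chromosome 8 from 72319033 to 72321656 on the plus strand. The RefSeq promoter table of GRCm38.p6 had no entry for S1pr1 and Cd69. It matched 3 of the 5 members, Klf2, S1pr5 and S1pr4, and their bases upstream of the start of transcription are shown. They run 5′ to 3′ on the gene's own strand at chr8:72318812-72319032, chr9:21248444-21248693 and chr10:81500138-81500387, and capitals mark matches to the motifs named after them.
Klf2: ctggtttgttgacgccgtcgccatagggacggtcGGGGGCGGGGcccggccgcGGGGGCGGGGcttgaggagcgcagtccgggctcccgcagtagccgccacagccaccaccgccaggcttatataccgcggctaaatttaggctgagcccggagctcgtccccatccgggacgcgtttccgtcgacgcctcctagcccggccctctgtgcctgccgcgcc
S1pr5: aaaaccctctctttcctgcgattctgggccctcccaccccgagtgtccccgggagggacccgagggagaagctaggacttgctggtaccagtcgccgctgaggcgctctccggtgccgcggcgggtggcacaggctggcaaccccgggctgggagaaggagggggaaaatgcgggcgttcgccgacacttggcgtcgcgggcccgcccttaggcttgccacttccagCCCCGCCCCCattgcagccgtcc
S1pr4: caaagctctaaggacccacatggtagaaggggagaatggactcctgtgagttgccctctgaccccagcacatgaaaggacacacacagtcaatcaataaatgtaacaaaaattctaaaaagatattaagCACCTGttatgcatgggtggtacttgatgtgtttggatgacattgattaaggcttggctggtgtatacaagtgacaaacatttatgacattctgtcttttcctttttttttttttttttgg

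The motif CCNCNCCC of Klf and Sp factors, read on both strands, had 4 overlapping matches in 2 stretches of the Klf2 window and 2 overlapping matches in 1 stretch of the S1pr5 window, and none in the S1pr4 window. It occurred in 45.9% of the 32851 promoters of the table over 250 bases before the start. The motif CAGGTG of Zeb factors matched once, in the S1pr4 window, and occurred in 17.2% of all promoters. GGTGTGA of T-box factors, GTAAACA of Foxo factors and TGANTCA of AP-1, found in 3.33%, 3.17% and 6.75% of promoters, had no match in the 3 windows. GC content was 71.5% for Klf2, 69.2% for S1pr5 and 38.8% for S1pr4. A match describes the letters of the window and no binding was measured.

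S1pr5 was lower in lung than in blood in all 3 libraries, and Klf2 changed sides, being higher in lung than in blood in the naive and 6 h libraries and lower at 14 days. Cd69 was higher in lung at each time, with the widest gap at 14 days. S1pr1 was lowest at 14 days, with about the same level in both tissues, and S1pr4 had the narrowest range of the 5 genes. Levels are summed counts of a group of cells in CPM, and they are compared between groups and not between genes, since counts at the 3' end are not scaled for how well each transcript is captured.

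S1pr5 had 118 CPM in naive lung and 183 in naive blood, 94.9 in 6 h lung and 148 in 6 h blood, and 66.4 in 14-day lung and 155 in 14-day blood. The 3 lung groups lay below the 3 blood groups without overlap, and 14-day blood and 6 h blood were the only neighbours in the order whose 95% intervals overlapped. Klf2 had 1105 CPM in naive lung and 809 in naive blood, 1049 in 6 h lung and 757 in 6 h blood, and 455 in 14-day lung and 822 in 14-day blood. The 14-day lung group stood alone at the bottom of the order, 2.43-fold below naive lung. Blood stayed within 757 to 822 CPM at all times, and the intervals of 14-day and naive blood overlapped.

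Cd69 had 37.4 CPM in naive lung and 30.9 in naive blood, 58.1 in 6 h lung and 35.8 in 6 h blood, and 77.5 in 14-day lung and 23.3 in 14-day blood. The highest and the lowest of the 6 values thus both came from the 14-day library, 3.33-fold apart, and naive lung and 6 h blood were the neighbours with overlapping intervals. S1pr1 had 35.7 CPM in naive lung and 28.7 in naive blood, 32.7 in 6 h lung and 24.6 in 6 h blood, and 17.3 in 14-day lung and 17.2 in 14-day blood. The 14-day groups had overlapping intervals and lay below all others, and naive and 6 h lung also overlapped. S1pr4 had 96.0 CPM in naive lung and 91.0 in naive blood, 92.7 in 6 h lung and 83.5 in 6 h blood, and 67.7 in 14-day lung and 99.4 in 14-day blood. The 4 highest S1pr4 groups each overlapped their neighbour in the order, and 14-day lung was the lowest, 1.47-fold below the highest group. Each interval is an exact Poisson interval of the summed count and covers counting error only, not the differences between mice or libraries.

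**Figure D1:**
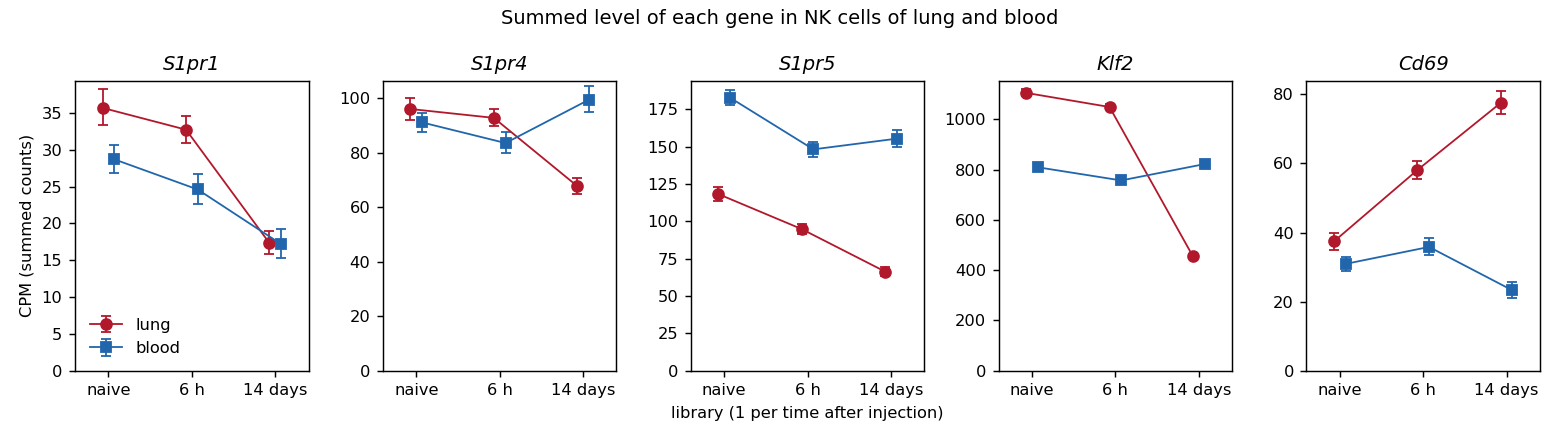
Summed level of each of the 5 genes (CPM, linear axis from 0) in lung (red circles) and blood (blue squares) of the naive, 6 h and 14-day libraries, with exact 95% Poisson intervals and lines joining the 3 libraries of a tissue. Klf2 in lung is at 1105 and 1049 CPM at the earlier times and at 455 at 14 days, with blood between 757 and 822, and Cd69 in lung is at 37.4, 58.1 and 77.5 CPM.

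For Klf2 and S1pr5, the share of cells with at least 1 UMI showed the same groups standing apart. Klf2 was found in 94.3% to 96.9% of cells in 5 groups and in 68.1% (95% exact binomial interval 66.6% to 69.6%) of 14-day lung cells. After each cell was thinned to 3000 UMIs, these shares were 84.3% to 88.6% in the 5 groups and 53.9% in 14-day lung. S1pr5 was found in 47.6%, 46.0% and 34.0% of lung cells and in 65.1%, 61.3% and 64.6% of blood cells of the naive, 6 h and 14-day libraries. Thinned shares kept lung below blood, at 29.0%, 25.1% and 18.3% against 41.8%, 34.9% and 36.5%. Cd69 was found in 14.2%, 21.2% and 25.1% of lung cells and in 14.1%, 16.9% and 11.99% of blood cells. S1pr1 was found in 8.73% to 14.7% of cells and S1pr4 in 36.5% to 50.9%. The Cd69 shares of lung and blood had overlapping intervals in the naive library, also after thinning. The same held for the S1pr1 shares in each library. The cells were sorted as NK cells, so no cell type that lacks these genes was at hand, and background was judged from free RNA. It could supply at most 12.4% of the level of S1pr5 and 11.6% of that of S1pr4 in naive lung, and 9.81% or less of any member's level in the other groups.

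Ratios of summed CPM with exact conditional intervals then asked how far lung and blood differed within each library, where both tissues were sequenced as 1 library. The methods describe perfusion and collagenase digestion for lung but not for blood. Differences between the tissues therefore cannot be told apart from those of preparation. A member was called when its ratio passed 1.5-fold with an interval on 1 side of no change, and with 1 library per time this carries no test. Background shares count the genes past 1.5-fold among those that reached 50 CPM in either group compared, without the condition on the interval. S1pr1 never reached that level and Cd69 did so in 4 of the 7 comparisons, so their ratios stand beside shares of genes with higher counts. In the naive library 1 of 5 members was lower in lung and none higher, where 2.21% of the 4067 genes with at least 50 CPM were lower and 7.67% higher past 1.5-fold. This was S1pr5, with a log2 ratio of lung over blood of -0.63 (95% CI -0.69 to -0.56). Klf2 stood at 0.45 (0.42 to 0.47), S1pr1 at 0.31, Cd69 at 0.27 and S1pr4 at 0.08, all short of 1.5-fold. Relative to the median of all tested genes (-0.07) S1pr5 stood at -0.56, which is also short of it.

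In the 6 h library 1 of 5 members was lower in lung, against 1.8% of 3948 genes, and 1 was higher, against 7.19%. S1pr5 was the lower one at -0.64 (-0.71 to -0.57) and Cd69 the higher one at 0.70 (0.58 to 0.82). Klf2, at 0.47 (0.44 to 0.50), and S1pr1, at 0.41 (0.26 to 0.56), were on the lung side as in the naive library. S1pr4 stood at 0.15. S1pr5 relative to the median gene was at -0.57, just short of 1.5-fold.

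In the 14-day library 2 of 5 members were lower in lung, against 3.4% of 3711 genes, and 1 was higher, against 6.06%. The lower members were S1pr5 at -1.23 (-1.31 to -1.14) and Klf2 at -0.85 (-0.89 to -0.82), and 0.108% and 0.808% of genes lay as low or lower. Cd69 was higher at 1.74 (1.58 to 1.89), a level that 1.19% of genes reached. S1pr4 stood at -0.55 (-0.65 to -0.46), and S1pr1 at 0.01 with an interval from -0.20 to 0.23. Klf2 was thus on opposite sides of blood at 6 h and 14 days, with intervals that do not meet. Without the cells that had a UMI of a T cell, B cell, myeloid, endothelial, epithelial or platelet marker, the ratios at 14 days were -0.84 for Klf2, -1.21 for S1pr5 and 1.75 for Cd69.

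The same members were then compared between each time and the naive library within a tissue, which asks what changed with the tumor cells and cannot be told apart from differences between the libraries. At 6 h 1 of 5 members was higher in lung, Cd69 at a log2 ratio of 0.63 (0.52 to 0.75), where 0.231% of 3889 genes were higher past 1.5-fold. S1pr5 stood at -0.32 (-0.39 to -0.25) in lung and at -0.30 (-0.37 to -0.24) in blood, and the median gene at -0.09 and -0.07. No member passed 1.5-fold in blood at 6 h, where 0.153% of 3910 genes did in either direction.

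At 14 days 3 of 5 members were lower in lung, against 13.4% of 3939 genes, and 1 was higher, against 4.47%. Klf2 had a log2 ratio of -1.28 (-1.31 to -1.25), S1pr1 of -1.04 (-1.21 to -0.88) and S1pr5 of -0.83 (-0.92 to -0.75). For S1pr1, 10.9% of the 8108 genes with at least 10 CPM were lower past 1.5-fold, whatever their interval. Cd69 had 1.05 (0.94 to 1.17). The median over all genes was -0.25 in this comparison, and relative to it Klf2 stood at -1.03, S1pr1 at -0.79, S1pr5 at -0.58 and Cd69 at 1.31, so that S1pr5 then fell just short of 1.5-fold. S1pr4 stood at -0.50, or -0.25 relative to the median.

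In blood 1 of 5 members was lower at 14 days, against 3.02% of 3902 genes. This was S1pr1 at -0.74 (-0.94 to -0.55), and 3.01% of the 8117 genes with at least 10 CPM were lower past 1.5-fold, whatever their interval. It stood at -0.54 relative to the median gene (-0.20) and was then no longer past 1.5-fold. Klf2 stood at 0.02 (-0.01 to 0.05), S1pr4 at 0.13, S1pr5 at -0.23 and Cd69 at -0.41 (-0.58 to -0.24). Klf2, which had the lowest ratio of the 5 members in lung, was within 0.05 of no change in blood. S1pr1 is the member that was low in both tissues at 14 days.

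**Figure D2:**
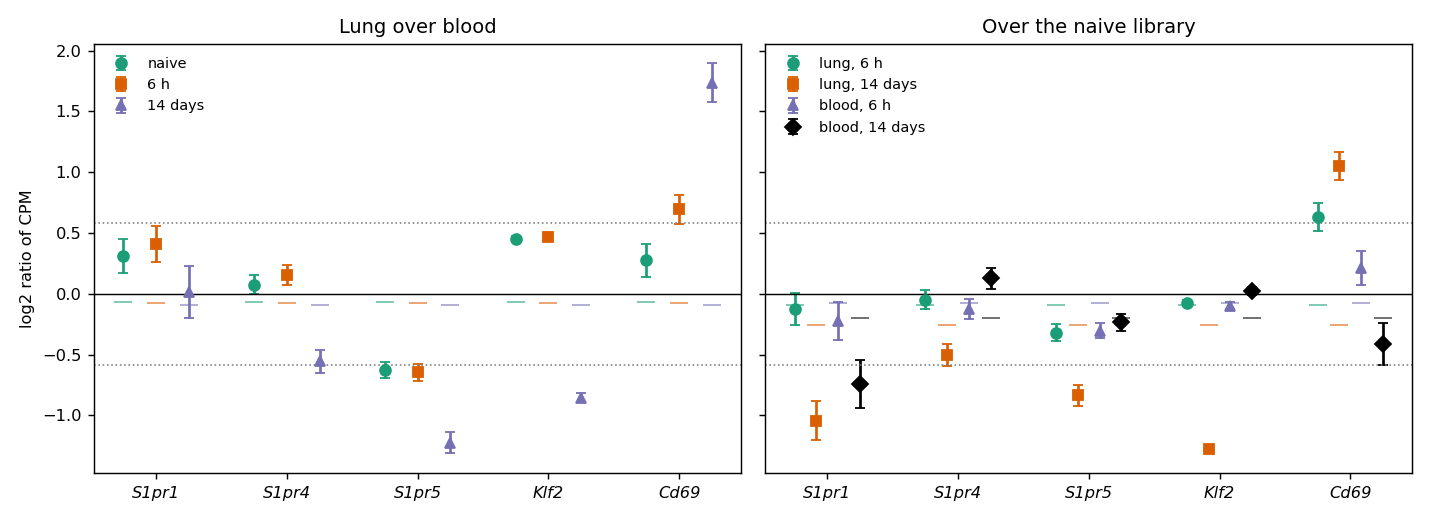
Log2 ratios of CPM with exact 95% intervals for lung over blood in each library (left) and for 6 h and 14 days over naive in each tissue (right). Dotted lines mark 1.5-fold and short dashes the median ratio over the genes that reached 50 CPM. On the left S1pr5 lies below 0 in all 3 libraries, Klf2 lies at 0.45, 0.47 and -0.85, and Cd69 at 0.27, 0.70 and 1.74.

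Lung and blood can be tested over the 3 libraries, which served as blocks in an edgeR quasi-likelihood fit of the 6 summed groups with 2 residual degrees of freedom. The libraries differ in treatment, so a tissue difference that changes with time counts as spread in this test. Totals were rescaled between groups here (TMM), so these log2 differences need not match the plain CPM ratios above. S1pr5 was lower in lung by a log2 difference of -0.73 (SE 0.12, adjusted p = 0.0131, lower in 3 of 3 libraries). S1pr1 was higher by 0.36 (SE 0.09, adjusted p = 0.0407). These were 1 member lower, where 7.12% of 12653 genes were, and 1 higher, where 11.8% were. Cd69 did not pass at 0.99 (SE 0.28, adjusted p = 0.0624), although its ratio was above 0 in 3 of 3 libraries. Klf2 at 0.13 (SE 0.26, adjusted p = 0.769) and S1pr4 at -0.01 (SE 0.13, adjusted p = 0.983) had no common direction, as their ratios at 14 days went the other way from those at the earlier times.

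Both calls depended on the fit. S1pr5 had an adjusted p of 0.0571 without the 6 h library and kept its call in the other 8 fits. S1pr1 lost its call in 5 of 9 alternative fits, with an adjusted p of 0.0959 in DESeq2 and 0.411 without the library block. Without the 14-day library Klf2 was higher in lung by 0.57 (adjusted p = 7.00e-15), but in that fit on 2 libraries 45.2% of all genes passed.

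Among the signalling genes next to the receptors, Rgs1, Rgs2 and Rgs16, 3 of 8 regulators of G protein signalling, were higher in lung. Of the 22 genes of receptor signalling and its brakes, 21 were tested, of which 6 were higher and 2 lower in lung, with a median log2 difference of -0.01, where 11.8% of all genes tested were higher and 7.12% lower. Rgs3, Rgs10, Rgs18 and Rgs19 did not pass, at -0.24, 1.17, -0.47 and -0.16. Rgs1, which shortens the signal of chemoattractant and lipid receptors, was higher by 3.15 (SE 0.05, adjusted p = 2.52e-05) and had 317, 339 and 372 CPM in lung against 38.0, 39.9 and 46.3 in blood, in the order naive, 6 h and 14 days. Rgs2 was higher by 2.69 (SE 0.15, adjusted p = 0.000563), with 355, 326 and 162 CPM in lung against 51.7, 44.6 and 37.8 in blood. Rgs16 was higher by 2.32. The G protein subunits Gna13 and Gna12, which signal through Arhgef1, were higher by 0.55 and 0.47, while Arhgef1 itself and the brake Rgs14 were lower by log2 differences of -0.37 and -0.41. The inhibitory subunit Gnai3 was higher by 0.26. Gnai2, the subunit through which S1pr1 signals, had 412 to 495 CPM in all 6 groups.

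Among the other receptors and the enzymes of the lipid, 1 gene passed the test. S1pr2 had 8.34 to 13.7 CPM over the groups and did not pass the test (adjusted p = 0.198), and S1pr3 was at 0.28 CPM or less. Of 19 genes for synthesis, transport and breakdown of sphingosine 1-phosphate, 15 were tested, none was higher and 1 was lower in lung, against 11.8% and 7.12% of all genes. It was Sgpp1, a phosphatase of the lipid, at -0.27 (SE 0.06, adjusted p = 0.0282). The kinase Sphk1 had 0.03 CPM or less in all 6 groups, and the lyase Sgpl1 had 35.7 to 49.0.

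Among 14 regulators linked to Klf2 or S1P receptor transcription, 13 were tested, 6 were higher and 3 lower in lung, with a median of 0.33, beside the same 11.8% and 7.12% of all genes. Klf4 was higher by 2.41 (SE 0.17, adjusted p = 0.00115), at 6.46 to 8.94 CPM in lung and 1.00 to 1.81 in blood. Stat3 was higher by 1.79 (SE 0.12, adjusted p = 0.000997), Klf6 by 0.97, the repressor Bach2 by 0.67, Prdm1 by 0.36 and Foxo1, an activator of Klf2 in lymphocytes, by 0.62 (SE 0.12, adjusted p = 0.0206). Ikzf3, an Ikaros family factor, was lower by a log2 difference of -0.64 (SE 0.07, adjusted p = 0.00398). Zeb2, a repressor of transcription in mature NK cells that acts with Tbx21, was lower by a log2 difference of -0.60 (SE 0.10, adjusted p = 0.0153), and Tbx21, the T-box factor known to be needed for S1pr5 in NK cells, by one of -0.30 (SE 0.05, adjusted p = 0.0188). At 14 days 8 of the 12 regulators with at least 50 CPM were lower in lung than in naive lung by over 1.5-fold, with a median of -0.78 against -0.25 for all genes, and none was higher. Over all genes 13.4% were lower and 4.47% higher in that comparison. Foxo1 had 181 CPM in naive and 93.7 in 14-day lung, Klf3 205 and 98.6, and Zeb2 1289 and 631. Tbx21 had 386 and 267, which is short of 1.5-fold. In blood 2 of the 12 were lower, against 3.02% of all genes.

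Of the 17 genes of retention and homing, 4 were higher and 2 lower in lung over the 3 libraries, with a median of 0.02, against 11.8% and 7.12% of all genes. Cxcr4, a receptor that holds cells in bone marrow and other tissue, was higher by 3.42 (SE 0.14, adjusted p = 0.000325), with 168 to 177 CPM in lung and 14.5 to 24.0 in blood. Emb, an adhesion protein, was higher by 2.59 (SE 0.08, adjusted p = 0.000117). Ccr7, a receptor for homing to lymph nodes, was higher by 2.91 at 1.95 CPM or less in every group. Itgae, the CD103 integrin chain, was lower by a log2 difference of -0.80 at 9.57 CPM or less. The integrin chain Itga4 was lower by a log2 difference of -0.51 (SE 0.07, adjusted p = 0.00912). Itga1, the collagen-binding integrin CD49a, had 12.2 to 31.5 CPM in 5 groups and 70.8 in 14-day lung.

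Genes that respond to stress and to tissue handling were mostly higher in lung than in blood. Their median log2 ratios were 2.17, 2.06 and 2.13 in the naive, 6 h and 14-day libraries, over the 7 with 50 CPM or more. Their part in the ratios of Cd69 and Klf2 was not tested. Single genes differed in how their ratio changed across the libraries. Fosb had 14.2, 25.2 and 47.3 CPM in lung against 8.11, 6.11 and 3.96 in blood. Jun had 106, 109 and 217 against 34.3, 29.6 and 30.8, and Dusp1 had 196, 217 and 147 against 8.91, 10.1 and 8.21. Hspa1a and Hspa1b stayed below 50 CPM in every group and are not in those medians. In lung Hspa1a had 1.15, 1.87 and 22.1 CPM and Hspa1b 3.20, 4.06 and 41.9, and in blood both had 2.49 or less. Of 12 such genes 10 were higher in lung over the 3 libraries and none lower, against 11.8% and 7.12% of all genes, with a median of 2.27, and their summed level was 1956 to 2170 CPM in lung and 521 to 587 in blood. Between 52.3% and 56.5% of lung cells and between 13.8% and 17.7% of blood cells had a UMI of Hspa1a, Hspa1b, Egr1, Atf3 or Nr4a1. Without these cells Cd69 had a log2 ratio of lung over blood of 0.05, 0.59 and 1.51 in the naive, 6 h and 14-day libraries, in place of 0.27, 0.70 and 1.74. Klf2 had 0.50, 0.56 and -0.81 without them, and S1pr5 -0.49, -0.54 and -1.11, the first 2 of which are short of 1.5-fold. The cells left still held other genes of the list, as Junb had a UMI in 90.4% to 93.5% of all lung cells. Of the 10 interferon response genes, Irf7 and Isg15 were higher in lung over the 3 libraries, by 0.75 and 0.72, and none was lower. They summed to 480 CPM in 14-day lung and to 227 to 319 in the other groups, and their part in the level of Cd69 was not tested.

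Maturation of mouse NK cells runs from cells with Cd27 to cells with Itgam (CD11b), and cells were split by whether they had a UMI of either gene. A cell without a UMI may still express the gene, so the 4 classes are ranges. S1pr5 was higher in Cd27- Itgam+ than in Cd27+ Itgam- cells of all 6 groups, with log2 ratios of 1.14 to 2.55. In naive blood it had 212 and 96.7 CPM in these 2 classes, and in 14-day lung 97.3 and 16.6. Klf2 followed the same order, with ratios of 0.53 to 0.78 in the naive and 6 h groups, 1.03 in 14-day blood and 1.94 in 14-day lung. In 14-day lung it had 633 CPM in Cd27- Itgam+ cells and 165 in Cd27+ Itgam- cells.

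S1pr1 ran in the opposite order at the earlier times. In naive lung it had 80.7 CPM in Cd27+ Itgam- cells and 26.9 in Cd27- Itgam+ cells, a log2 ratio of -1.59 (-1.87 to -1.30), and the ratios in naive blood and at 6 h were -1.01 to -1.39. At 14 days the ratio was -0.06 (-0.44 to 0.34) in lung and -0.49 (-1.08 to 0.14) in blood, so that the order could not be shown there. Cd27+ Itgam- cells of lung had 80.7 CPM of S1pr1 in the naive library, 59.4 at 6 h and 16.4 at 14 days. They were 6.53% of naive and 13.5% of 14-day lung cells, with median UMI counts of 6658 and 9101. The class therefore need not hold the same kind of cells at each time.

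S1pr4 differed little along these classes in 5 groups, with log2 ratios of 0.14 to 0.30, and had 1.10 (0.87 to 1.33) in 14-day lung. Cd69 ran in the same order as S1pr1 and was lower in Cd27- Itgam+ cells of all 6 groups, with ratios of -0.45 to -1.11.

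The differences between 14-day and naive lung were found within each of these 4 classes. Klf2 in lung over naive lung had log2 ratios of -2.31 in Cd27+ Itgam-, -1.26 in Cd27+ Itgam+, -0.89 in Cd27- Itgam+ and -1.57 in Cd27- Itgam- cells. With equal weight for the 4 classes in both groups, its ratio was -1.37, against -1.28 for the cells as they came. S1pr5 within the classes had -1.75, -0.71, -0.49 and -0.99 in the same order, and Cd69 had 0.76, 0.95, 0.86 and 1.03. S1pr5 in lung over blood at 14 days was -1.90, -1.11, -0.90 and -1.55. The most mature class thus had the ratio nearest to 0 for both Klf2 and S1pr5.

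**Figure D3:**
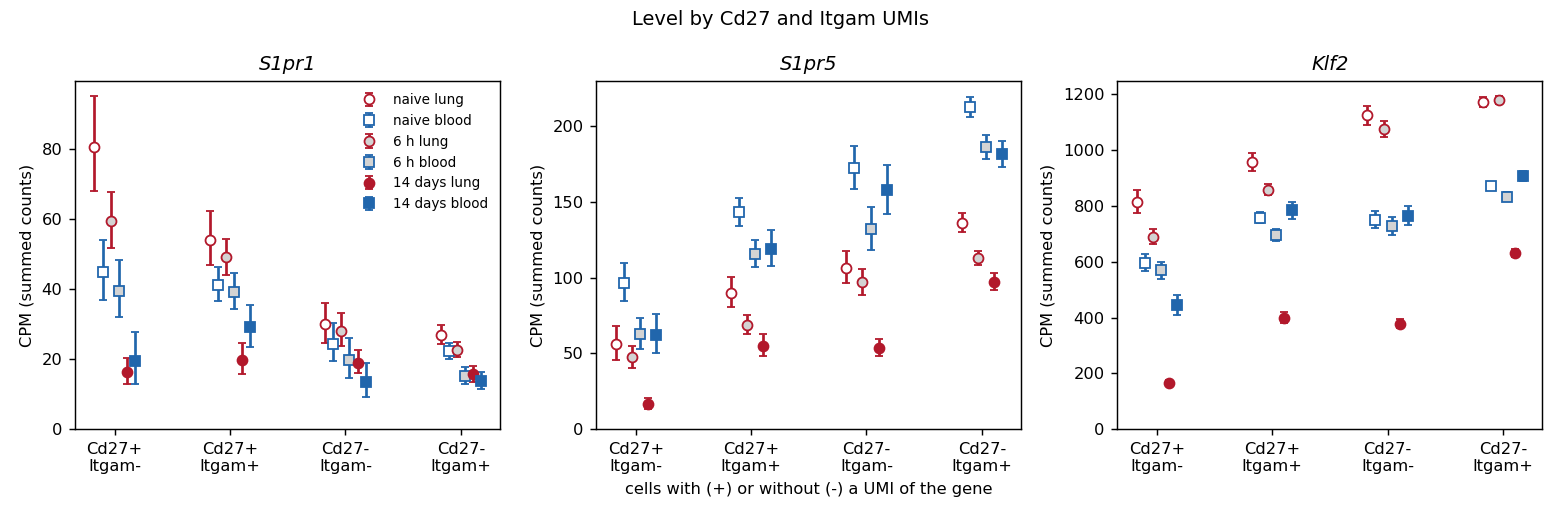
Level of S1pr1, S1pr5 and Klf2 (CPM, linear axes from 0) in 4 classes of cells with or without a Cd27 or Itgam UMI, for lung (red circles) and blood (blue squares) of the naive (open), 6 h (grey) and 14-day (filled) libraries, with exact 95% Poisson intervals. S1pr5 and Klf2 are lower in Cd27+ Itgam- than in Cd27- Itgam+ cells in each group, and filled red points for Klf2 lie lowest in each class, from 165 to 633 CPM.

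Within 14-day lung, cells with UMIs of both Itga1 and Pmepa1, genes of tissue residency and TGF-β response, numbered 605 of 3575. They had 113 CPM of Klf2 (105 to 123) against 538 (528 to 547) in the remaining cells, a log2 ratio of -2.25, and 40.0% against 73.8% of cells had a UMI. S1pr5 had 22.4 CPM (18.6 to 26.8) against 77.1, and S1pr4 39.6 against 74.5. Cd69 was higher at 96.7 (88.6 to 105) against 72.9, and S1pr1, at 20.3 against 16.6, was not separated, with a ratio of 0.29 (-0.03 to 0.59). The remaining cells still had less Klf2 than naive lung cells without both UMIs, which had 1109 CPM. Only 60 such cells were present in 6 h lung, with 832 CPM of Klf2 and 45.6 of S1pr5, and the naive groups held fewer than 50.

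Cells with a Gzmc UMI, a granzyme of activated lymphocytes, numbered 210 in 14-day lung. They had 119 CPM of Klf2 against 487 in other cells, 24.3 of S1pr5 against 70.5, 6.47 of S1pr1 (3.70 to 10.5) against 18.4, and 135 of Cd69 (121 to 151) against 71.9. Gzmc+ cells at 6 h, 102 in lung and 67 in blood, went the same way for Klf2, S1pr5 and Cd69. Their log2 ratios over other cells were -0.63, -0.67 and 0.45 in lung and -0.50, -0.76 and 0.96 in blood. Cells with UMIs of both Klrg1 and Cx3cr1, markers of terminal maturation, numbered 498 in 14-day lung. They stood at the other end for Klf2 (840 CPM), S1pr5 (141), S1pr4 (102) and Cd69 (44.7). For S1pr1 they were not separated from the remaining cells, with 15.8 CPM against 17.6 and a log2 ratio of -0.15 (-0.55 to 0.22). In this class 14-day blood had 938 CPM of Klf2 and 207 of S1pr5, and naive lung 1284 and 157. The S1pr5 intervals of naive lung (146 to 168) and 14-day lung (130 to 152) overlapped in this class. So did those of S1pr4, at 112 (102 to 121) and 102 (92.3 to 112), while those of Klf2 and Cd69 lay apart. Gzmc+ cells had a median of 11108 UMIs, more than the 6999 of all 14-day lung cells, and deeper cells are more likely to show a UMI of any gene.

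Cells without any Klf2 UMI were more frequent in 14-day lung than elsewhere. At 3000 UMIs per cell, 46.1% (44.5% to 47.8%) of 14-day lung cells had no Klf2 UMI, against 11.4% in naive lung and 11.4% to 15.7% over the other 5 groups. Cells with 3 or more Klf2 UMIs made up 23.9% in 14-day lung and 41.5% to 55.5% in the others. The variance of Klf2 UMIs over cells divided by their mean was 3.21 in 14-day lung, 3.19 in 6 h lung and 2.69 in naive lung, and 1.58 to 1.76 in the blood groups, where 1 is the value of counting noise alone.

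S1pr5 was higher in the classes of cells with more Klf2 UMIs. In 14-day lung it had 37.2 CPM (32.0 to 43.0) in cells without a Klf2 UMI, 86.8 in cells with 1 to 2 and 132 (118 to 147) in cells with 3 or more. In naive lung the same classes had 98.04, 108 and 137 (128 to 147) CPM. Cells with 3 or more Klf2 UMIs therefore had S1pr5 levels with overlapping intervals in naive and 14-day lung, while those without differed. The log2 ratio of cells with 3 or more over cells with none was 1.83 (1.56 to 2.10) in 14-day lung and 0.48 to 0.93 in the other 5 groups, and 0.0810% to 1.57% of genes in a group had a ratio as high. Mean Klf2 per thinned cell was 1.58 UMIs in 14-day lung and 2.45 to 3.56 in the other groups. A cell without a UMI may still express the gene, so the class with none may differ in kind between groups. The classes were not split by maturation.

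S1pr4 had ratios of 0.37 to 0.65 in 5 groups and 1.29 (1.03 to 1.55) in 14-day lung. S1pr1 had 1.53 (1.01 to 2.07) in 14-day lung and 1.98 in 14-day blood, the latter from 5 counts in cells without Klf2. In the naive and 6 h groups it had -0.17 to 0.62, the lowest in 6 h lung, and only the interval of naive blood lay above 0. Cd69 was lower in cells with 3 or more Klf2 UMIs in the 3 lung groups, at -0.78, -0.74 and -0.77, and its intervals in blood spanned 0. Cells with a Cd69 UMI had less Klf2 than cells without in 14-day lung, at -0.50, and stood at -0.25 in 14-day blood and at -0.16 to 0.01 in the naive and 6 h groups. These splits describe cells, which are not replicates.

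**Figure D4:**
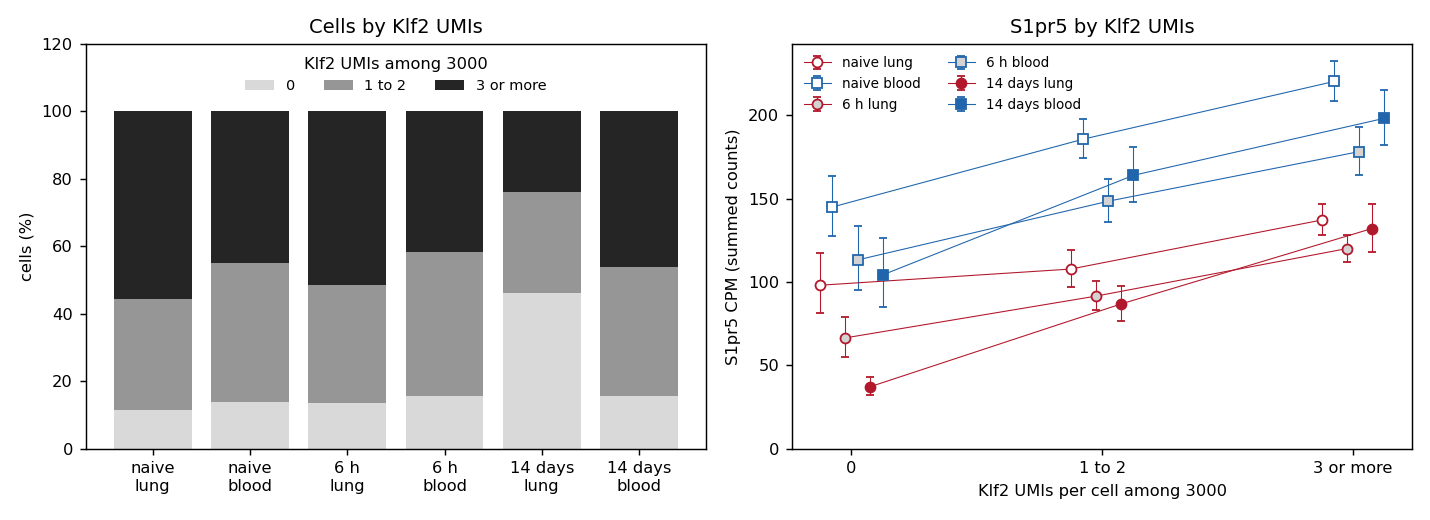
Left, share of cells (%) with 0, 1 to 2 or 3 or more Klf2 UMIs after thinning each cell to 3000 UMIs, in the 6 groups. Right, S1pr5 level (CPM, linear axis from 0, exact 95% Poisson intervals) in cells of these 3 classes, for lung (red circles) and blood (blue squares) of the naive (open), 6 h (grey) and 14-day (filled) libraries. In 14-day lung 46.1% of cells have no Klf2 UMI, and those cells have 37.2 CPM of S1pr5 against 132 in cells with 3 or more.

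Genes with the most similar pattern over the 6 groups were found by Pearson's r of log2(CPM + 1), a description over 6 groups that share libraries. For S1pr5 these included Cap1 and Klri1 (r = 0.99 each), and 11.3% of the 956 genes compared had an r over 0.9. Klf2 was most like Cd200r4, Prf1 and Prkca, at 0.97, 0.96 and 0.95, where 1.26% of 1267 genes passed 0.9. Prf1, the pore-forming perforin, had 790 CPM in 14-day lung and 1220 to 1380 in the other groups. Cd69 was most like Sft2d2 (0.96), the chemokine Cxcl10 (0.94) and the TGF-β feedback gene Smad7 (0.93). S1pr1 was most like Katna1, Aig1 and Map3k7 (0.995 to 0.996), where 13.4% of 2136 genes passed 0.9, and S1pr4 like Tnfsf12, Cma1 and Cmpk1 (0.97, 0.96 and 0.96), where 0.760% of 3684 did. For Cd69 the share was 1.57% of 635.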

How the data were processed

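NK cells from lung and blood were measured in 3 droplet libraries, 1 per time. What the authors deposited is a raw count of UMIs for each gene and hashtag in every barcode, made with Cell Ranger on GRCm38.p6. The deposited headers and the methods name different Cell Ranger releases. Positions of genes were read from GENCODE M21 (GRCm38), not from the annotation release the study used. The members and lists were chosen with earlier results of these data known.

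Barcodes with 800 to 5000 genes and at most 6% mitochondrial counts were kept, and tissue required 90% of tag counts. Of 8385, 7584 and 5785 barcodes, 342, 158 and 141 were in no tissue. Doublets within a tissue were kept, since doublet calls were not made here. Counts were summed per group and scaled to CPM. Ratios have exact intervals conditional on the sum. The limit on free RNA comes from markers of other cells in barcodes with at most 100 counts. Thinning drew 3000 UMIs per cell, leaving out 6 to 86 shallower cells per group. The tissue test used edgeR 4.0.16 (TMM, filterByExpr, library as block, Benjamini-Hochberg adjusted p, threshold 0.05) in R 4.3.3, with DESeq2 1.42.0 as an alternative. On simulated counts with 200 changed genes it recovered all 50 genes at each of 1.5, 2, 3 and 4-fold, with 3.38% false calls. Each simulated gene had the same fold in all 3 libraries and a low spread fixed in advance. The real libraries differ in treatment, so these shares do not give the power or the false calls of the test here. P-values set the mean difference between lung and blood against its spread over the 3 libraries, which edgeR moderates with that of all genes. That spread may be technical or come from treatment, which differs between the libraries. With 1 library per time, times were not tested, and intervals cover counting error only.

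The named genes are the 5 members, for each the 3 genes most alike over the groups (at least 50 CPM in the highest group and a log2 range of at least 50% of the member's), and up to 6 genes per list by size of the fold. Genes named beyond this, such as Gnai2, Gnai3, Arhgef1, Itga1, Sphk1, Sgpl1, Prdm1, Zeb2, Tbx21, Hspa1b, Cxcr6 and Gzma and the regulators at 14 days, were chosen after their values were seen. The values of some genes are not reported here. Alternatives changed the totals, the filter, the tags, the depth, the weighting of cells, free RNA, high-UMI cells, cells with other markers or stress genes, maturation classes and centring. Analyses used Python 3.11.15, numpy 2.4.6 and scipy 1.17.1.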

Additional observations from a re-analysis of the deposited data

Results flagged for a closer look

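S1pr4 and Cd69 had ratios of opposite sign in lung and blood at 14 days over naive, each with an interval on 1 side of no change. For S1pr4 the log2 ratio was -0.50 in lung cells and 0.13 in blood cells. Cd69 had 1.05 in lung and -0.41 in blood. With 1 library per time the difference between the tissues was not tested. With the median gene of each comparison set to 0 the values were -0.25 and 0.33 for S1pr4 and 1.31 and -0.21 for Cd69.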

How the results depend on the processing

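The 12 ratios of members called past 1.5-fold kept their sign in all 144 recomputed values and stayed past it in 137. The number of members called changed by more than 1.5 times in the following cases, and the cause was not tested. Without cells that had a UMI of Hspa1a, Hspa1b, Egr1, Atf3 or Nr4a1 it was 0 in place of 1 for naive lung over blood. For 6 h lung over blood it was 1 in place of 2 without those cells. With ratios set against the median gene it was 0, 1 and 0 for naive lung over blood, 6 h lung over blood and 14-day over naive blood, in place of 1, 2 and 1. With equal weights for the 4 maturation classes it was 0 in place of 1 for 6 h over naive lung. The Klf2 ratio of lung over blood at 14 days ranged from -0.88 to -0.75, and that over naive lung from -1.37 to -1.03.

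In the tissue test 2 members passed. DESeq2 called 1 and the fit without cells that had markers of other types 1, while leaving out 1 library in turn gave 0 to 5, with 0 without the 6 h library and 5 without the 14-day library, where only 1 residual degree of freedom remained. Without the library block 2 passed, S1pr5 and Cd69 (adjusted p = 0.0479). Klf2 ranged from -0.0949 to 0.568 with 1 library left out, at -0.0841 without the naive and -0.0949 without the 6 h library. S1pr4, which was near 0, ranged from -0.131 to 0.221 with 1 library left out, at 0.221 without the 14-day library, and was 0.0152 without mitochondrial and ribosomal protein genes. No paired analysis of mice was possible because the labels give 1 sample per time. Over all genes 2392 passed as reported, 1640 in DESeq2, 1247 without the block and 498 to 5781 with 1 library left out. S1pr1, with 291 counts in 14-day blood, is the member that depth limits most.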

Other observations

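Rgs10, a further regulator of G protein signalling, was at 1.49 to 2.60 CPM in 5 groups and at 26.6 CPM in 14-day lung, a log2 ratio of 4.16 over naive lung. It was chosen after its values were seen.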
